A study of Mus musculus with 6 samples.

Results

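The genes described here are the mouse cytochrome P450 genes of families 1, 2 and 3, chosen as every row of the deposited table whose symbol is Cyp1, Cyp2 or Cyp3 followed by a subfamily letter and a number with nothing after it. The rule took 53 of 23036 rows, in 15 subfamilies: 14 Cyp2c, 8 Cyp2d, 7 Cyp3a, 5 Cyp2b, 5 Cyp2j, 4 Cyp2a and 2 Cyp1a genes, and 1 gene each of Cyp1b, Cyp2e, Cyp2f, Cyp2g, Cyp2r, Cyp2s, Cyp2t and Cyp2u. Copies named with a trailing letter, such as Cyp3a41a, and P450 pseudogenes fall outside the rule and are among the 41 other P450 rows of the table.

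Bulk liver mRNA was sequenced from female mice that began a western diet, rich in fat and sugar and used to bring on fatty liver disease, at 8 weeks of age and ate it for 20 weeks. The flox group carried Hkdc1 fl/fl alleles, in which the gene of hexokinase domain containing 1 is flanked by loxP sites, and the LKO group lacked Hkdc1 in the liver. All 6 libraries shared sex and diet, and neither the Cre driver nor the deleted exon is given in the sources used here. No source states that each library was a separate mouse, so every p-value below reflects only the spread among these 6 samples, part or all of which may be technical. The genotype field of the labels gave 3 flox and 3 LKO libraries, numbered here in that field's groups, but the title of flox 3 names the knockout and the title of LKO 1 names the floxed genotype. Every comparison was therefore made in 3 ways: by the genotype field, on the 4 libraries whose labels agree (flox 1 and flox 2 against LKO 2 and LKO 3), and by the titles (flox 1, flox 2 and LKO 1 against flox 3, LKO 2 and LKO 3). Hkdc1 itself had 49, 22, 1, 10, 1 and 4 counts in flox 1, flox 2, flox 3, LKO 1, LKO 2 and LKO 3. All lists of 6 values below keep that order. The groups of the genotype field overlapped for Hkdc1, and the groups of the titles did not.

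P450 enzymes of families 1 to 3 are haem proteins of the endoplasmic reticulum that oxidise drugs, pollutants, steroids, bile acids and polyunsaturated fatty acids, with electrons supplied by the P450 reductase Por. Hepatocytes, and pericentral hepatocytes above all, hold most of them. Many answer to the receptors Ahr, CAR (Nr1i3) and PXR (Nr1i2), and several mouse Cyp2a, Cyp2b, Cyp2c, Cyp2d and Cyp3a genes differ between the sexes under the pulse pattern of growth hormone, through STAT5B and factors such as the repressors BCL6 in males and CUX2 in females. CUX2 and the liver factor HNF6 (Onecut1) are known to bind related DNA sequences.

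The results turn on 5 genes, whose promoters are shown because 4 of them are Cyp2c neighbours on chromosome 19 with near-copies among them. Each line runs 5′ to 3′ on the strand of the gene from 250 bases before to 50 bases from its start, as RefSeq gives it on GRCm38.p6, and Cyp2c70, the neighbour at the end of the same run of genes, stands last for comparison. Capitals mark ATTGAT on either strand, the core of ONECUT-type sites, which was chosen after the values were seen.
Cyp2c37: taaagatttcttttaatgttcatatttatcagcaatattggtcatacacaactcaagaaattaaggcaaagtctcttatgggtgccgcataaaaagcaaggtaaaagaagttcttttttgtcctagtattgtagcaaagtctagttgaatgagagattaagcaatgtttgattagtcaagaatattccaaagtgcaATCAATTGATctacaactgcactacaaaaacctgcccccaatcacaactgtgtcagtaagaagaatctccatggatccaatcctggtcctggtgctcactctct
Cyp2c50: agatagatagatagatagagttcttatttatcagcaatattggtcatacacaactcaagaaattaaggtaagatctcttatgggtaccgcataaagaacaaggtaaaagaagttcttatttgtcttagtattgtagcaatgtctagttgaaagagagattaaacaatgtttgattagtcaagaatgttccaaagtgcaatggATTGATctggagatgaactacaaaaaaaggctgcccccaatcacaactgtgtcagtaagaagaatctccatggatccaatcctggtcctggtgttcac
Cyp2c40: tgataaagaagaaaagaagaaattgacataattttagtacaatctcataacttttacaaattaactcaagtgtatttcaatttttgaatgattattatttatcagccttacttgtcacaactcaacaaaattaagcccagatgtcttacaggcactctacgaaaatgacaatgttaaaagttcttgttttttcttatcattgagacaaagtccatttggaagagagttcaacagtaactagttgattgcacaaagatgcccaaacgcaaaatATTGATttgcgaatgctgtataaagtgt
Cyp2c69: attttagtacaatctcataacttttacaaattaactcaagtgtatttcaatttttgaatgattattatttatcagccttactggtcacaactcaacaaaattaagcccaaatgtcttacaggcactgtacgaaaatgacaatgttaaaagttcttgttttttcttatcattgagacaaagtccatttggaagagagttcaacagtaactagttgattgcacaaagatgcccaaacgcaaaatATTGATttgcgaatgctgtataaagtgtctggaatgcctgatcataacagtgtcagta
Cyp3a44: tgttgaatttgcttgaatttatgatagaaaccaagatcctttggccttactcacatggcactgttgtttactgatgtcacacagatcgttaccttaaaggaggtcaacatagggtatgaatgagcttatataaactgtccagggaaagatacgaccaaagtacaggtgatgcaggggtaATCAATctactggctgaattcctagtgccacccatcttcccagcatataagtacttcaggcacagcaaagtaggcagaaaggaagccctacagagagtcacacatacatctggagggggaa
Cyp2c70: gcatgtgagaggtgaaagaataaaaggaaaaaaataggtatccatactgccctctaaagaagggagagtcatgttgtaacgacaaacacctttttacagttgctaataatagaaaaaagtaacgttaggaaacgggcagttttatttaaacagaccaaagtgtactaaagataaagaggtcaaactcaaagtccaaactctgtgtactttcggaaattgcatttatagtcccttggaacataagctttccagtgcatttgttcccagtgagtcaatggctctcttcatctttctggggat

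These windows lie at chr19:39992174-39992473 on the plus strand for Cyp2c37, chr19:40089429-40089728 on the plus strand for Cyp2c50, chr19:39812765-39813064 on the minus strand for Cyp2c40, chr19:39886720-39887019 on the minus strand for Cyp2c69, chr5:145805825-145806124 on the minus strand for Cyp3a44 and chr19:40187237-40187536 on the minus strand for Cyp2c70. The Cyp2c40 and Cyp2c69 windows were identical at 267 of 270 aligned bases (98.9%), and those of Cyp2c37 and Cyp2c50 at 256 of 281 (91.1%). Counted from the gene start, the marked letters began at -54 and -50 in Cyp2c37, -48 in Cyp2c50, -8 in Cyp2c69 and -71 in Cyp3a44. In Cyp2c40 they lay after the start, from position 22, since its annotated start is placed differently in nearly the same sequence. RefSeq promoters were matched to 46 of the 53 genes in 49 windows. ATTGAT stood in 10 of these windows (20.4%), those of Cyp1a2, Cyp2c37, Cyp2c40, Cyp2c50, Cyp2c67, Cyp2c68, Cyp2c69, Cyp3a16, Cyp3a44 and Cyp3a57, against 7.54% of all 32851 promoter windows of the same length. Near-copies in this count share their sequence by descent, so the windows are not independent. TATAAA, on either strand, stood in 51% of the P450 windows and 13.6% of all windows, the nuclear receptor half-site AGGTCA in 38.8% and 16.3%, and the STAT5-type letters TTCNNNGAA in 0 of the P450 windows and 8.3% of all. No overlap of one motif with another was removed, and a match or its absence describes letters only.

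Of the 53 genes, 43 had a mean of at least 1 CPM (counts scaled to library size, with TMM factors over the 6 libraries) and 26 a mean of at least 100 CPM. Cyp2c65 had no count in any library. In 7 genes, Cyp2b19, Cyp2b23, Cyp2c65, Cyp2j13, Cyp2j8, Cyp2t4 and Cyp3a57, counts were too low to be tested in any grouping. The highest level among those 7 was 0.647 CPM, for Cyp2t4. A count of 3 was worth 0.173 to 0.186 CPM at library totals of 16166515 to 17366295 counts.

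Summed over the 53 genes, P450 mRNA was 11258, 13710, 21586, 16073, 19092 and 25288 CPM, which was 1.28 to 2.39% of all counts. Flox 1 and flox 2 were the lowest 2 libraries, LKO 1 came next and LKO 3 was the highest. The LKO mean was 1.30 times the flox mean by the genotype field (20151 ± 4698 against 15518 ± 5396 CPM, SD, n = 3 each), where the groups overlapped. It was 1.78 times the flox mean with agreeing labels (22190 ± 4381 against 12484 ± 1734, n = 2 each) and 1.61 times by the titles (21989 ± 3118 against 13680 ± 2407, n = 3 each), and in both the groups did not overlap.

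Several cell-type marker sums moved with these groups, and their part in the P450 levels was not tested. The summed hepatocyte markers were 69920, 77581, 99648, 83137, 92824 and 97721 CPM, with 7 of 8 markers in the table and none at 0. Alb alone, at 48893, 52779, 71573, 53426, 64023 and 68889 CPM, made up most of each sum. With agreeing labels, Ahsg, Alb, Apoa1, Serpina1a and Ttr were higher in LKO without overlap, while the groups of Apob and Fgb overlapped. The LKO mean of the sum was 1.29 times the flox mean with agreeing labels and 1.26 times by the titles. That ratio was smaller than that of summed P450. Pericentral hepatocyte markers other than P450 genes, 9 of 9 in the table, were 2546 to 3962 CPM with a ratio of 1.24 with agreeing labels. Cholangiocyte markers, 7 of 7 in the table, were 360.1 to 478 CPM in flox 1 and flox 2, 33.8 to 60.9 CPM in LKO 2 and LKO 3, 79.3 CPM in flox 3 and 169 CPM in LKO 1. Stellate and fibroblast markers, 7 of 7 in the table, were 812 to 1138 CPM in flox 1 and flox 2 and 278 to 428 CPM in the other libraries. Adrenal cortex markers, 8 of 8 in the table, reached 2103 CPM in LKO 2 and 226 CPM in LKO 3 against at most 9.66 CPM elsewhere, and adipocyte markers, 7 of 7, reached 109 and 13.5 CPM there against at most 0.906 CPM. In bulk tissue, fewer cells of a type and less RNA per cell cannot be told apart.

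Per length, in the deposited FPKM (fragments scaled to gene length and library size), Cyp2e1 was the most abundant gene of the 53, with a mean of 2748 FPKM over the 6 libraries and 30.6 to 37.7% of the summed FPKM of the families. Cyp2d26 followed at a mean of 568 FPKM, then Cyp2a5 at 478, Cyp2a4 at 459, Cyp2d10 at 387 and Cyp3a11 at 320 FPKM. As shares of summed FPKM, Cyp2c made up 14.3 to 26.6%, Cyp2d 13.3 to 17.0%, Cyp2a 9.64 to 17.5% and Cyp3a 4.30 to 13.7%. Flox 1 had the largest Cyp3a share and LKO 2 the smallest, and LKO 2 had the largest Cyp2c share.

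**Figure D1:**
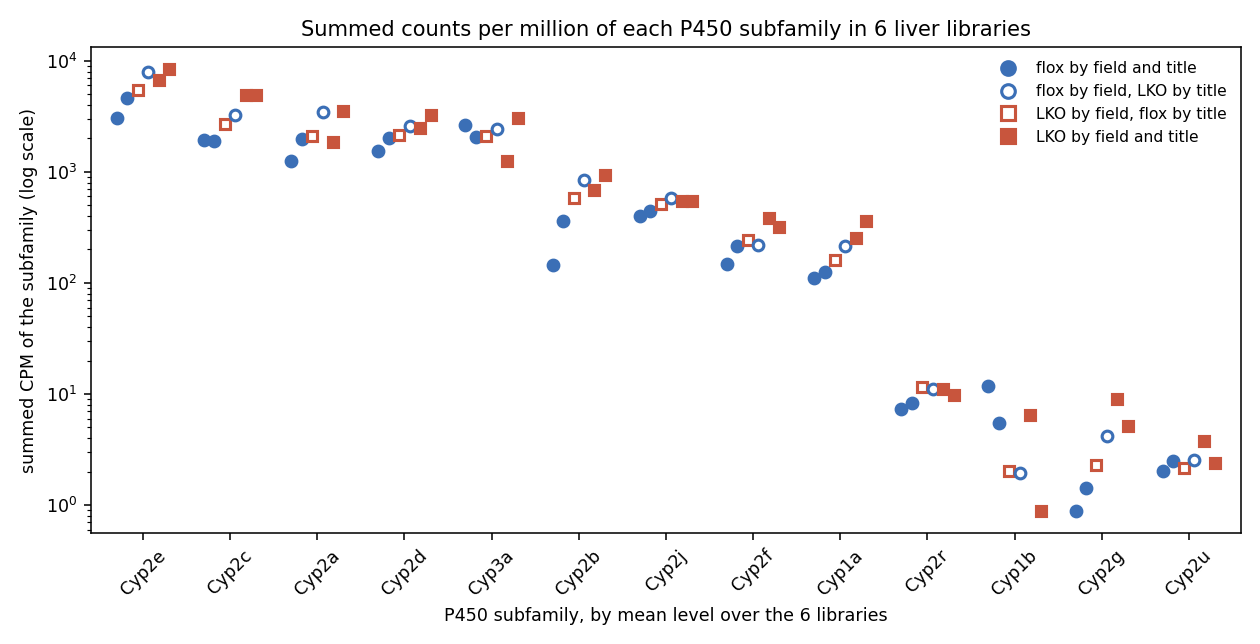
Summed CPM of the 13 subfamilies with a mean of at least 1 CPM, on a log scale, with 1 point per library, coloured by the genotype field and drawn hollow where the title disagrees. Cyp2c was at 1894 to 1949 CPM in the filled flox points and 4894 to 4902 CPM in the filled LKO points, while Cyp3a ran from 1245 to 3067 CPM with the groups overlapping.

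Counts of called genes depended on the grouping. By the genotype field, edgeR called 0 of 45 tested P450 genes at an adjusted p under 0.05, as it called 0 of all 14310 genes (0%). At an unadjusted p under 0.05 there were 5 of 45 P450 genes, against 8.85% of all genes, and DESeq2 called 0 P450 genes among 35 genes in all. With agreeing labels, 4 of 46 tested P450 genes rose in LKO and 0 fell, where 0.13% of the 14625 genes tested rose and 0.492% fell. By the titles, 1 of 45 rose and 0 fell, against 0.0559% and 0.3% of 14310 genes (0.356% in either direction). At an unadjusted p under 0.05 there were 27 of 46 P450 genes with agreeing labels (16.6% of all genes) and 24 of 45 by the titles (13.9%).

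The same lean was seen without a threshold. The fold change lay above 0 for 36 of 45 P450 genes by the genotype field (49.1% of all genes tested), 40 of 46 with agreeing labels (50.6%) and 38 of 45 by the titles (50.7%). The median log2 fold change of the P450 genes was 0.34, 0.67 and 0.58 in these groupings, beside -0.01, 0.00 and 0.00 over all genes tested. The groupings share libraries, so these are not separate observations.

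Groups that did not overlap, with every LKO library above every flox library, were seen for 2 of 45 genes by the genotype field (Cyp1a1 and Cyp2f2, against 7.63% of all genes). With agreeing labels there were 31 of 46 such genes (23.8% of all genes) and by the titles 19 of 45 (8.35%). The opposite order was seen for 0 of 45 genes by the genotype field (6.81% of all genes). With agreeing labels it was seen for 3 of 46, Cyp2d12, Cyp2j6 and Cyp2s1 (25.5%), and by the titles for 1 of 45, Cyp2d12 (10.6%). Of the 46 genes tested in any grouping, 27 were lowest in flox 1. The highest library was LKO 3 for 23, LKO 2 for 11 and flox 3 for 6. These extremes were not counted over all genes, so they may not be particular to P450 genes.

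**Figure D2:**
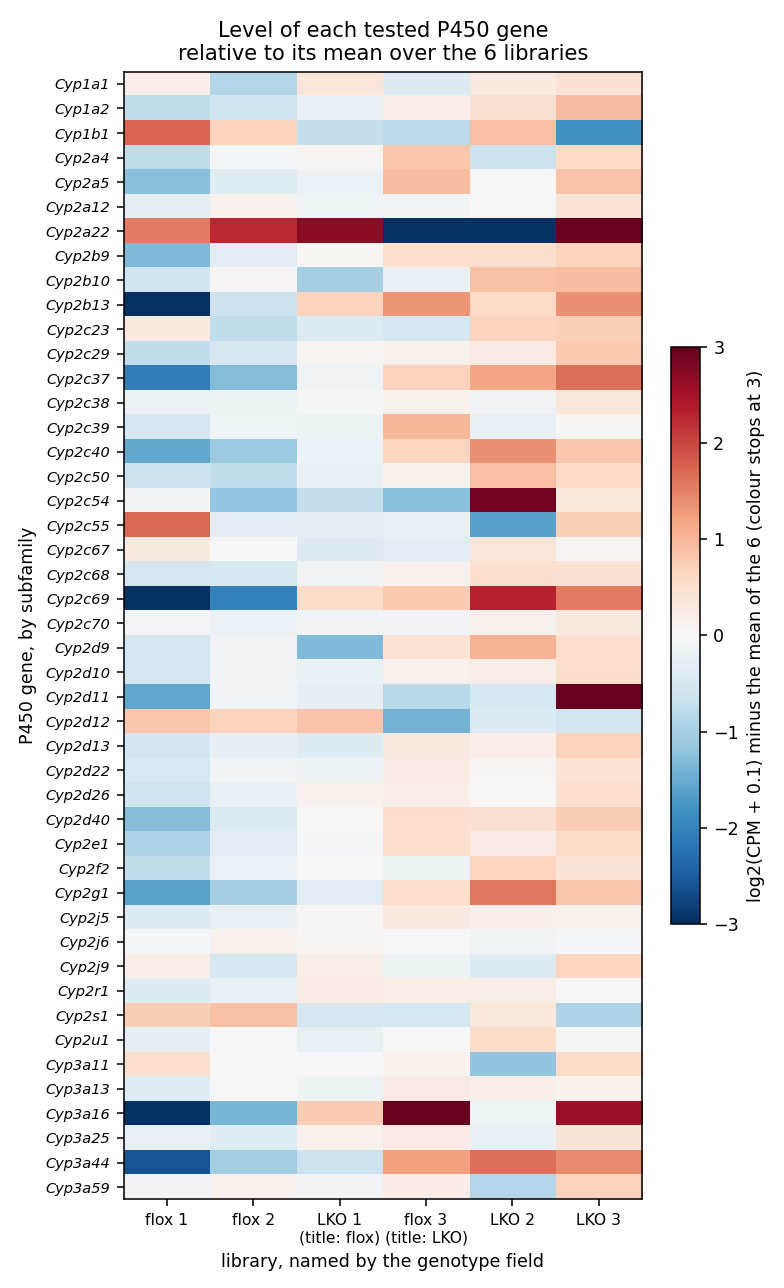
Level of each of the 46 tested P450 genes in each library as log2(CPM + 0.1) minus its mean over the 6 libraries, with red above the mean and blue below, and colour stopping at 3. Blue prevails in flox 1 and red in LKO 3, and Cyp2a22 stands out at 0.259 CPM in flox 3 and 0.361 CPM in LKO 2.

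The genes that passed the test lay in the Cyp2c subfamily, with 1 in Cyp3a. Mouse Cyp2c enzymes oxidise arachidonic and linoleic acids as well as drugs. Of the 14 Cyp2c genes, 13 lie from Cyp2c55 to Cyp2c70 within 1.18 Mb of chromosome 19 (GRCm39, bases 38995463 to 40175777), and Cyp2c23 lies apart. The 4 Cyp2c genes called were Cyp2c40, Cyp2c69, Cyp2c37 and Cyp2c50, which are neighbours in this order with Cyp2c54 between the last 2.

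Cyp2c37, an arachidonic acid hydroxylase induced through CAR (ENSMUSG00000042248, bases 39980868 to 40000687, plus strand), had 80.8, 137, 549, 315, 757 and 1072 CPM. Flox 1 and flox 2 were below all other libraries. With agreeing labels its mean was 915 ± 223 CPM in LKO and 109 ± 39.8 CPM in flox (SD, n = 2 each), a log2 fold change of 3.08 ± 0.34 (SE) with an adjusted p of 0.028 by edgeR. By the titles it was 2.16 ± 0.48 (adjusted p = 0.113), and by the genotype field 1.49 ± 0.74 (adjusted p = 0.569).

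Cyp2c69, a female-predominant gene (ENSMUSG00000092008, bases 39831258 to 39875243, minus strand), had 15.5, 34.6, 244, 205, 702 and 412 CPM. Again flox 1 and flox 2 stood below the other 4 libraries, and LKO 2 was the highest. The log2 fold change was 4.48 ± 0.48 with agreeing labels (adjusted p = 0.0276), 2.42 ± 0.87 by the titles (adjusted p = 0.27) and 2.17 ± 0.97 by the genotype field (adjusted p = 0.556).

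Cyp2c40, a female-predominant arachidonic acid hydroxylase (ENSMUSG00000025004, bases 39755515 to 39801258, minus strand), had 47.0, 63.2, 215, 121, 352 and 239.9 CPM. Its log2 fold change was 2.43 ± 0.26 with agreeing labels (adjusted p = 0.0276), 1.81 ± 0.35 by the titles (adjusted p = 0.0901) and 1.13 ± 0.62 by the genotype field (adjusted p = 0.582). The title groups did not overlap, and the genotype-field groups did. Cyp2c40 and Cyp2c69 are hard to tell apart by reads: of the 50-base stretches of the Cyp2c40 transcript, 72.1% occur in another gene and 42.1% in Cyp2c69, so reads may have been divided between the copies and each gene's own value is uncertain.

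Cyp2c50, a pericentral epoxygenase (ENSMUSG00000054827, bases 40078132 to 40102394, plus strand), had 225, 210.1, 380.3, 308, 655 and 530.0 CPM. The log2 fold change was 1.45 ± 0.19 with agreeing labels (adjusted p = 0.0455), 1.08 ± 0.23 by the titles (adjusted p = 0.105) and 0.87 ± 0.33 by the genotype field (adjusted p = 0.554). Cyp2c37 and Cyp2c50, whose promoters were nearly alike, share 21.1% of the 50-base stretches of Cyp2c37.

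The calls of all 4 genes rested on flox 1: without it the adjusted p was 0.0897 for Cyp2c37, 0.087 for Cyp2c69, 0.145 for Cyp2c40 and 0.188 for Cyp2c50, where over all the fits that left out a library the adjusted p ran from 8.29e-07 to 0.188. Without flox 2 the calls of Cyp2c40 (adjusted p = 0.0583) and Cyp2c50 (adjusted p = 0.113) were also lost. Over the fits that left out 1 library, the log2 fold change ran from 2.73 to 3.5 for Cyp2c37 and 4.01 to 5.16 for Cyp2c69. It ran from 2.13 to 2.69 for Cyp2c40 and 1.3 to 1.6 for Cyp2c50. LKO 2 and LKO 3 both held more adrenal and adipocyte marker counts than flox 1 and flox 2. Leaving out either LKO library therefore cannot separate these markers from the genotype. The loss without flox 1 was not particular to these genes: that fit called 0 of all 15147 genes tested, against 19 higher and 72 lower in the fit of all 4 libraries. Fits of 3 libraries leave a single one in a group and assume that it varies like the others.

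**Figure D3:**
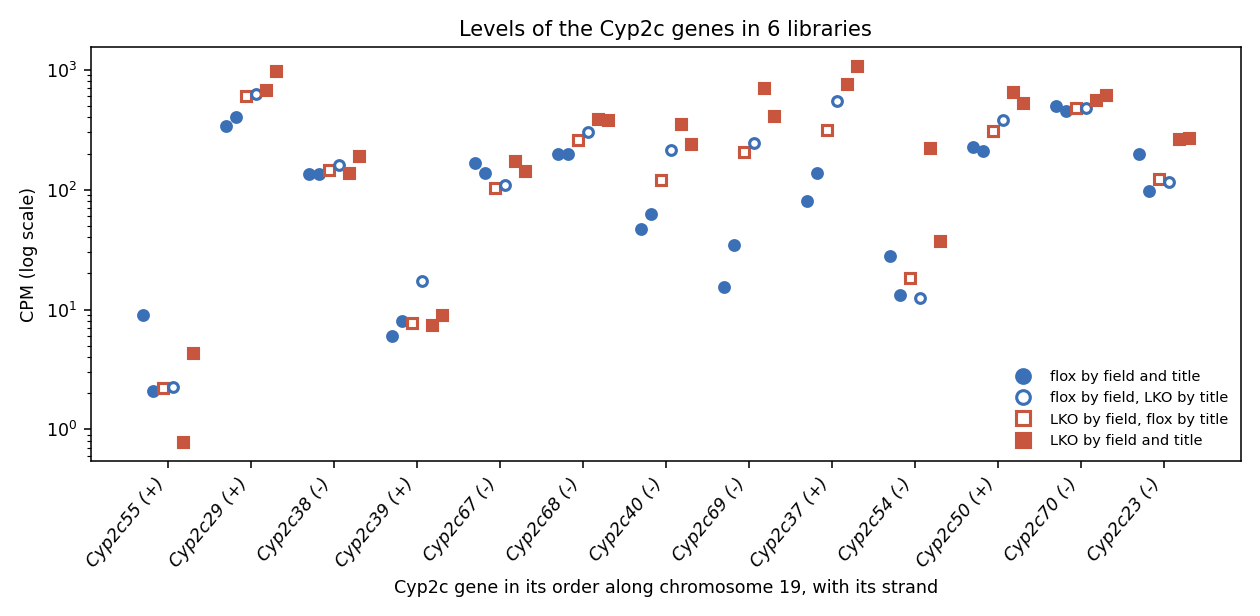
CPM, on a log scale, of the 13 Cyp2c genes with any count, in their order along chromosome 19 with the strand in brackets and 1 point per library, hollow where title and genotype field disagree. Filled flox and filled LKO points stand well apart for Cyp2c40, Cyp2c69 and Cyp2c37, while the points of Cyp2c67 and Cyp2c70 lie close together at 104 to 175 CPM and 452 to 616 CPM.

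The neighbours of the called genes differed among themselves. Cyp2c68, next to Cyp2c40, had 197, 199, 305, 259, 391 and 384 CPM, with a log2 fold change of 0.98 ± 0.16 with agreeing labels that missed the threshold (adjusted p = 0.0643). Cyp2c67, whose transcript shares 40% of its 50-base stretches with Cyp2c40, was at 104 to 175 CPM with a log2 fold change of 0.08 ± 0.18. Cyp2c70, the enzyme that makes muricholic bile acids in the mouse, had 503, 452, 484, 483, 558 and 616 CPM and a log2 fold change of 0.30 ± 0.18 (adjusted p = 0.46). None of its 50-base stretches occurs in another gene.

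Cyp2c29, an abundant pericentral epoxygenase induced through CAR, had 341, 404, 628, 609.7, 678 and 985 CPM, with flox 1 and flox 2 lowest. Its log2 fold change with agreeing labels was 1.16 ± 0.24 (adjusted p = 0.11). Cyp2c54, named after its values were seen, had 28.2, 13.1, 12.4, 18.2, 222 and 37.2 CPM. It was 1 of 143 rows of the whole table whose LKO 2 level exceeded that of every other library at least 5 times.

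Summed as a subfamily, which does not depend on how reads were split among the copies counted, Cyp2c had 1949, 1894, 3219.9, 2700.5, 4902 and 4894 CPM. The log2 fold change of the sum was 1.36 ± 0.24 with agreeing labels (adjusted p = 0.0749), 0.99 ± 0.23 by the titles (adjusted p = 0.117) and 0.83 ± 0.32 by the genotype field (adjusted p = 0.551). None of the 14 tested subfamily sums passed in any of the 3 groupings, where the same fits called 0.596% of all rows with agreeing labels (0.103% higher), 0.378% by the titles (0.063% higher) and 0% by the genotype field. At an unadjusted p under 0.05 there were 7 of the 14 sums with agreeing labels (16.6% of all rows), 8 by the titles (13.8%) and 2 by the genotype field (8.94%). DESeq2 called 6, 5 and 0 of them, all higher, and among all rows it called 275 higher and 448 lower of 14593 with agreeing labels, 174 and 436 of 14279 by the titles, and 21 and 14 of 14279 by the genotype field.

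**Figure D4:**
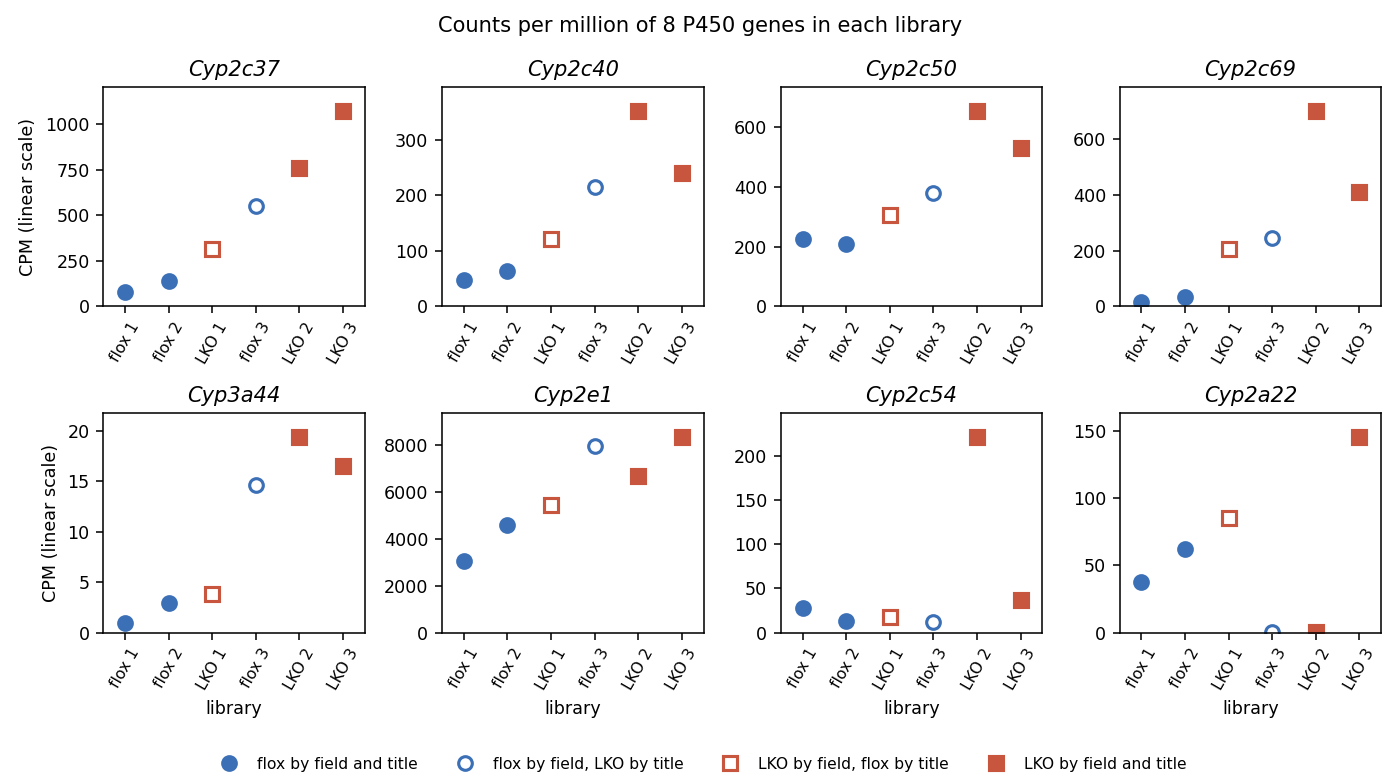
CPM on a linear scale from 0 in each of the 6 libraries for the 5 P450 genes that passed in a grouping and for Cyp2e1, Cyp2c54 and Cyp2a22, with circles for flox and squares for LKO by the genotype field, open where the title disagrees. Flox 1 and flox 2 are the lowest 2 points for each of the 5 genes that passed, while Cyp2c54 is high in LKO 2 alone and Cyp2a22 near 0 in flox 3 and LKO 2.

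In the Cyp3a subfamily, which oxidises many drugs and steroids, the scarce female-predominant Cyp3a44 (ENSMUSG00000054417, chromosome 5, bases 145710793 to 145742684, minus strand) had 0.935, 2.90, 14.6, 3.86, 19.4 and 16.5 CPM. The 3 libraries titled LKO were above the 3 titled flox. By the titles its mean was 16.8 ± 2.43 against 2.56 ± 1.49 CPM (SD, n = 3 each) and its log2 fold change 2.72 ± 0.41 (adjusted p = 0.0464), and with agreeing labels the log2 fold change was 3.25 ± 0.48 (adjusted p = 0.0575). By the genotype field it was 1.13 ± 0.93 (adjusted p = 0.696). The call by the titles was lost without flox 2 (adjusted p = 0.268), flox 3 (0.0974), LKO 2 (0.107) or LKO 3 (0.21), where the fits that left out 1 library ranged from an adjusted p of 0.0291 to 0.268.

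The abundant Cyp3a11, a leading PXR target of mouse liver, had 2127, 1539, 1638, 1494, 669.8 and 2253 CPM. LKO 2 and LKO 3 were its lowest and highest libraries. The log2 fold change was -0.32 ± 0.54 with agreeing labels (adjusted p = 0.819), -0.18 ± 0.39 by the titles and -0.26 ± 0.40 by the genotype field, and its sign turned without LKO 2 in all 3 groupings. Cyp3a25 had 319, 288, 439, 406, 321 and 479.8 CPM, with overlapping groups by the titles. Cyp3a16, scarce in adult liver and named after its values were seen, had 0.208, 3.33, 72.3, 15.1, 8.00 and 53.3 CPM, a log2 fold change of 4.16 ± 1.21 with agreeing labels that did not pass (adjusted p = 0.181). Summed Cyp3a was 2628, 2063, 2428, 2124, 1245 and 3067 CPM, with a log2 fold change of -0.11 ± 0.43 with agreeing labels.

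Cyp2e1, which oxidises ethanol, acetone and acetaminophen in pericentral hepatocytes, had 3071, 4576, 7970.3, 5459, 6699 and 8359 CPM. The 3 libraries titled LKO were the highest and did not overlap with the others. Its log2 fold change was 0.81 ± 0.23 by the titles (adjusted p = 0.18), 0.98 ± 0.33 with agreeing labels (adjusted p = 0.225) and 0.39 ± 0.37 by the genotype field (adjusted p = 0.726). It was not called in any of the 3.

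Among the Ahr targets, Cyp1a2, which oxidises aromatic amines and caffeine in the liver, had 111, 124, 213, 160.0, 255 and 358 CPM. Its title groups did not overlap, and its log2 fold change was 1.39 ± 0.21 with agreeing labels (adjusted p = 0.0605) and 1.07 ± 0.22 by the titles (adjusted p = 0.0967). Cyp1a1, strongly induced by Ahr ligands elsewhere, was at 0.247 to 0.76 CPM. Cyp1b1, an oestrogen hydroxylase found in stellate cells rather than hepatocytes, had 11.7, 5.43, 1.94, 2.02, 6.44 and 0.887 CPM. Its log2 fold change of -1.21 ± 0.81 with agreeing labels did not pass (adjusted p = 0.514), but without LKO 2, the library with the most adrenal and adipocyte marker counts, it was -3.25 and passed (adjusted p = 0.00133, where the fits that left out 1 library ranged from 0.00133 to 0.933). In LKO 2 and LKO 3 the stellate and fibroblast marker sums given above were lower than in flox 1 and flox 2. By the genotype field these sums overlapped between the groups, and Cyp1b1 itself was higher in LKO 2 than in flox 2. The part of these markers in the Cyp1b1 values was not tested.

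The Cyp2b genes include the CAR target Cyp2b10 and the female-predominant Cyp2b9 and Cyp2b13. Cyp2b9 had 128, 255, 444, 325, 446 and 509.8 CPM, and its title groups did not overlap. Cyp2b13 had 15.8, 104, 402, 258, 237 and 413 CPM, lowest in flox 1 and highest in LKO 3. Their log2 fold changes with agreeing labels were 1.32 ± 0.33 for Cyp2b9 (adjusted p = 0.147) and 2.45 ± 0.81 for Cyp2b13 (adjusted p = 0.223), so neither passed. Without LKO 2 both passed, at 1.42 for Cyp2b9 (adjusted p = 0.0221) and 2.80 for Cyp2b13 (adjusted p = 0.00541), and without flox 2 the value of Cyp2b13 was 4.35 (adjusted p = 0.0528). Without flox 1 the adjusted p was 0.338 and 0.341, the highest of the fits that left out 1 library. Cyp2b10 remained at 1.37 to 5.45 CPM.

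In the Cyp2a subfamily, Cyp2a5, the mouse coumarin hydroxylase, had 373, 693, 1708, 789, 905 and 1620.1 CPM. Cyp2a4, a steroid 15-alpha-hydroxylase and near-copy of Cyp2a5 that shares 36.1% of its 50-base stretches with it, had 441, 717, 1308, 793, 476 and 1139.6 CPM. Both were highest in flox 3 and LKO 3, and the log2 fold changes with agreeing labels were 1.25 ± 0.40 for Cyp2a5 (adjusted p = 0.212) and 0.49 ± 0.44 for Cyp2a4 (adjusted p = 0.636). Cyp2a12, which hydroxylates bile acids and testosterone, was steadier at 406, 524, 459, 445, 492 and 645 CPM.

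Cyp2a22, named after its values were seen, had 37.8, 62.3, 0.259, 85.5, 0.361 and 146 CPM. The low libraries were flox 3 and LKO 2, and it was the only row of the whole table that was at least 10 times lower in both of these than in each other library with at least 1 CPM in the others. Cyp2a12, the only gene with which it shares 50-base stretches (25.7%), did not show this pattern. Neither the genotype field nor the titles separate these libraries from the rest, and the log2 fold change was 0.55 ± 1.55 with agreeing labels (adjusted p = 0.898). The sign followed the LKO library left out: without LKO 2 it was 1.55 (adjusted p = 0.0012) and without LKO 3 it was -7.08 (adjusted p = 1.17e-07) with agreeing labels, and by the titles it was -7.59 without LKO 3 (adjusted p = 0.0279).

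Of the Cyp2d genes, 7 of the 8 had fold changes above 0 with agreeing labels, against 50.6% of all genes tested. None of the 8 was called there, where 0.13% of all genes tested rose and 0.492% fell. The abundant Cyp2d26 had 665, 871, 1142, 1093, 1014 and 1391 CPM. Cyp2d10 had 438, 586, 683, 546, 706 and 905 CPM, with 40.5% of its 50-base stretches in other genes. Flox 1 was the lowest library for both. Cyp2d13 had 186, 228, 329.6, 205, 312 and 436 CPM, with a log2 fold change of 0.80 ± 0.16 by the titles (adjusted p = 0.0948). Cyp2d22, often compared with human CYP2D6, had 179.6, 233, 295, 222, 258 and 329 CPM. The exception in direction, Cyp2d12, stayed at or below 1.01 CPM, and Cyp2d11 was at 7.03 CPM in LKO 3 and at most 0.617 CPM elsewhere.

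The remaining subfamilies hold few genes. Cyp2f2, the periportal P450 that activates naphthalene, had 147, 217, 220.4, 244, 383 and 321 CPM. It was 1 of the 2 genes whose genotype-field groups did not overlap, with a log2 fold change of 0.70 ± 0.22 there (adjusted p = 0.554) and 0.96 ± 0.23 with agreeing labels (adjusted p = 0.138). Cyp2g1, best known from olfactory mucosa, had 0.883, 1.42, 4.21, 2.31, 8.97 and 5.19 CPM, with a log2 fold change of 2.63 ± 0.43 with agreeing labels that missed the threshold (adjusted p = 0.0677). Cyp2j5, an arachidonic acid epoxygenase of liver and kidney, had 329, 378, 518, 443, 485 and 475 CPM. The vitamin D 25-hydroxylase Cyp2r1 had 7.38, 8.27, 11.1, 11.5, 11.1 and 9.69 CPM, and the fatty acid hydroxylase Cyp2u1 had 2.03, 2.47, 2.52, 2.14, 3.73 and 2.41 CPM. Both stayed within a narrow range, with log2 fold changes of 0.42 ± 0.21 for Cyp2r1 and 0.46 ± 0.39 for Cyp2u1 with agreeing labels.

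**Figure D5:**
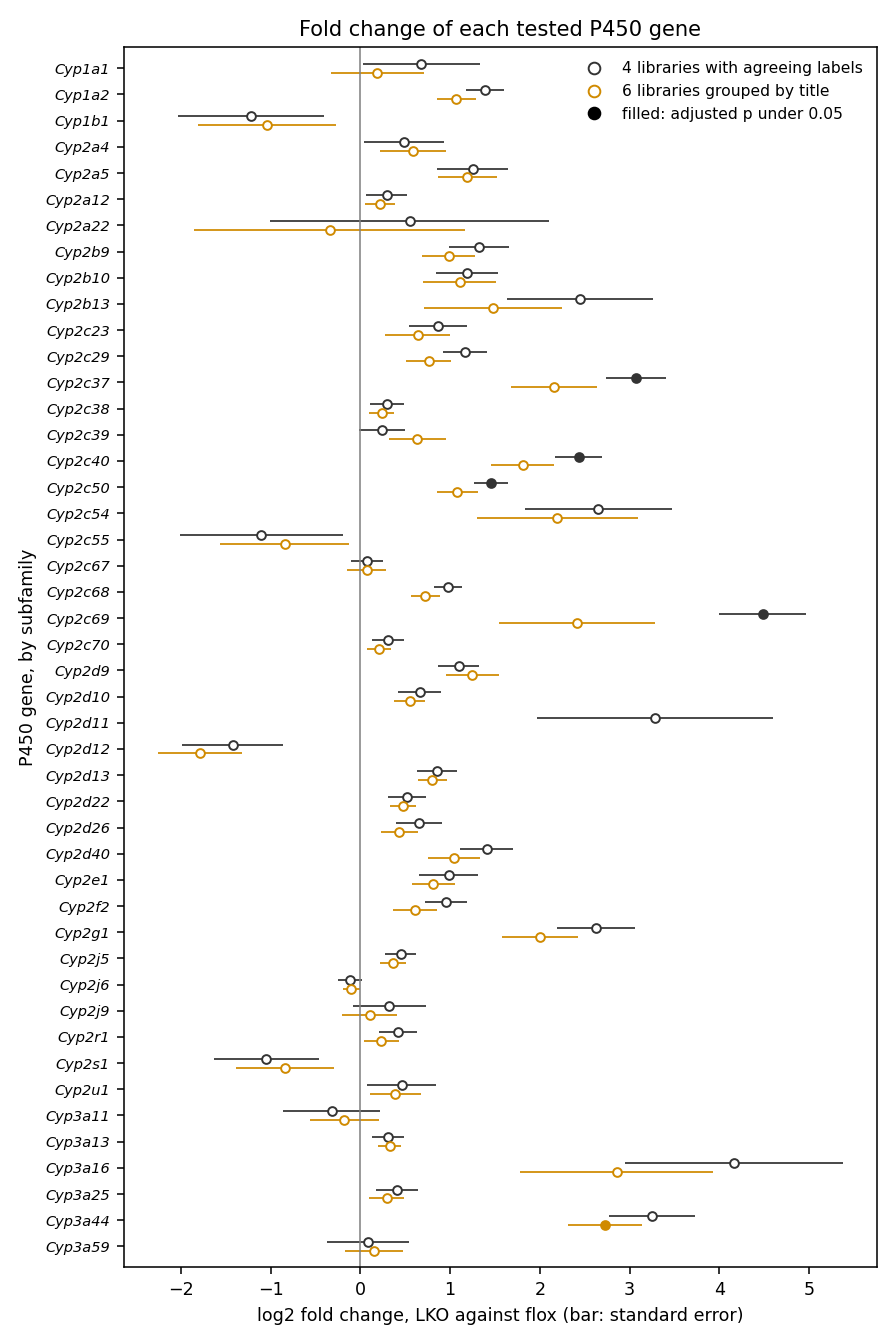
Log2 fold change of LKO against flox, with its standard error, for the 46 tested P450 genes with agreeing labels and for the 45 tested by the titles, filled where the adjusted p was under 0.05. Most points lie right of 0, and the filled ones are Cyp2c37, Cyp2c40, Cyp2c50 and Cyp2c69 with agreeing labels and Cyp3a44 by the titles.

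By function, the lists cut across subfamilies and were chosen with earlier results of these data known. Of 10 P450 genes counted as female-predominant in mouse liver, all tested, 2 rose with agreeing labels (Cyp2c40 and Cyp2c69), 1 by the titles (Cyp3a44) and 0 by the genotype field, and none fell, where 0.13%, 0.0559% and 0% of all genes tested rose. Their fold changes lay above 0 in 10, 10 and 8 of 10 (50.6%, 50.7% and 49.1% of all genes), with medians of 2.34, 1.48 and 0.78 on the log2 scale. Of the 4 male-predominant genes, Cyp2d9 among them, 3 were tested with agreeing labels and 2 in each other grouping, and 0 passed in each. Cyp2d9 and Cyp7b1 were above 0 in every grouping and Cyp4a12a, tested with agreeing labels, was below it, with list medians of 1.09, 1.11 and 0.68 with agreeing labels, titles and genotype field. The difference between the female- and male-predominant lists was not tested. Of 8 targets of Ahr, CAR and PXR, 1 rose with agreeing labels (Cyp2c37) and 0 in the other groupings. Fold changes lay above 0 for 5 of these 8 in every grouping, and Cyp1b1, Cyp2c55 and Cyp3a11 were below 0. The list medians were 0.92, 0.47 and 0.73 with agreeing labels, titles and genotype field. Of 8 pericentral P450 genes, 2 rose with agreeing labels (Cyp2c37 and Cyp2c50) and 0 in the others, with medians of 1.32, 1.07 and 0.76 with agreeing labels, titles and genotype field. Of the 41 other P450 rows, which include the Cyp4 and Cyp7 families, 31 were tested with agreeing labels and 26 in each other grouping, and 0 passed in each, with medians of 0.39, 0.27 and -0.03. The adrenal cortex markers Cyp11a1, Cyp11b1, Cyp11b2 and Cyp21a1 were among those tested with agreeing labels alone. Their log2 fold changes there were 9.22 to 11.9, so the medians cover unlike sets of genes. Cyp3a41a and Cyp3a41b stand in this list and in the female-predominant one.

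Among 44 redox partners, haem enzymes and regulators of P450 genes, all 44 were tested with agreeing labels, and 2 rose and 0 fell. Of all 14625 genes tested there, 0.13% rose and 0.492% fell. Prlr, the prolactin receptor, which is more abundant in female liver, had 132, 124, 286, 215, 342 and 369 CPM, with a log2 fold change of 1.48 ± 0.16 with agreeing labels (adjusted p = 0.0276) and 1.08 ± 0.22 by the titles (adjusted p = 0.0996). Cux2, the female-predominant repressor named above, had 37.2, 32.6, 104, 67.4, 86.5 and 127 CPM, with a log2 fold change of 1.62 ± 0.22 with agreeing labels (adjusted p = 0.0455) and 1.21 ± 0.28 by the titles (adjusted p = 0.117). Both calls were lost without flox 1, where 0 of all 15147 genes passed. For both, flox 1 and flox 2 were the lowest libraries and the title groups did not overlap. Neither passed by the genotype field, where 43 of the list were tested and 0 were called, as by the titles. The other regulators named above, Stat5b, Bcl6 and Onecut1, did not pass in any grouping. Their log2 fold changes were 0.27, -0.63 and -0.29 with agreeing labels and 0.22, 0.04 and -0.05 by the titles. By the genotype field they were 0.13, -0.79 and -0.41. The part of any regulator in the P450 levels was not tested.

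The reductase and the receptors did not pass in any grouping. Por had 577, 898, 1299, 659, 789 and 1052 CPM. Its log2 fold change was 0.33 ± 0.28 with agreeing labels, 0.56 ± 0.23 by the titles and -0.15 ± 0.31 by the genotype field. Ahr had 46.7, 78.9, 61.0, 49.2, 47.8 and 57.1 CPM. Nr1i2, which encodes PXR, had 99.9, 130.0, 142, 110.3, 76.8 and 126 CPM, lowest in LKO 2. Nr1i3, which encodes CAR, had 31.7, 59.6, 116, 56.3, 53.3 and 102 CPM, with its highest levels in flox 3 and LKO 3.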

How the data were processed

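Poly-A RNA of 6 liver libraries was extracted with TRIzol and prepared with an NEBNext Ultra kit, per the labels' protocols. The authors deposited whole-number counts per gene, not normalized, and FPKM values in the same table. The genome build was GRCm39, and featureCounts, fastp, HISAT, Cufflinks and StringTie are named as tools, per the submitters' processing notes. No version, gene annotation or strandedness is given in the sources used here. Column names matched the library names in the labels.

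Counts were tested with edgeR 4.0.16 in R 4.3.3 (filterByExpr with a minimum count of 10 and a minimum total of 15, TMM scaling, quasi-likelihood test) over the whole table, with Benjamini-Hochberg adjustment over all genes tested and a threshold of 0.05. Fold changes are LKO against flox, with SE taken as the size of the log2 fold change divided by the square root of F. Hkdc1 was kept in each fit and left out of counts. Each subfamily was also tested as 1 row of summed counts. FPKM was used for levels between genes only. Alternatives were DESeq2 1.42.0 and those in the closing section.

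Named genes were those called in a grouping, the 20 of highest mean CPM, and the highest of each subfamily with a mean of at least 1 CPM. The members and lists were chosen with earlier results of these data known. Shared 50-base stretches were counted between GENCODE vM21 transcripts for 52 of the 53 genes. With 9 genes sharing none and 20 sharing over 20%, values of single Cyp2a, Cyp2b, Cyp2c, Cyp2d and Cyp3a copies are uncertain. The depth of 16166515 to 17366295 counts per library covers counting error only.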

Additional observations from a re-analysis of the deposited data

How the results depend on the processing

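By the genotype field, 0 P450 genes and 0 subfamily sums were called under every alternative run. With agreeing labels, 4 called genes, all higher, became 20 higher with no filter on low counts (all genes: 421 higher and 687 lower of 21949), 16 higher with DESeq2 (284 and 449 of 14625), 8 higher at an adjusted p under 0.1 (88 and 258 of 14625), and 0 to 18 when 1 library was left out. They were 0 without flox 1 (0 of all 15147 genes), 3 higher without flox 2 (6 and 44 of 15475), 18 without LKO 2 (17 higher and, for Cyp1b1, 1 lower, where all genes gave 234 and 525 of 15294) and 12 without LKO 3 (10 higher and, for Cyp2a22 and Cyp3a59, 2 lower, where all genes gave 307 and 322 of 15515). Cyp1a2, Cyp2g1, Cyp2d9, Cyp2d40 and Cyp3a44, not called on all 4 libraries, passed as higher without LKO 2 and without LKO 3. Cyp2a5, Cyp2b9, Cyp2b13, Cyp2c29, Cyp2d11, Cyp2d13, Cyp2a22 and Cyp3a16 did so without LKO 2, and Cyp2c54 without LKO 3. The 0 sums became 2 higher with library size alone, where all rows gave 21 higher and 86 lower of 14593. They became 5 higher with no filter (all rows: 425 and 713 of 21912) and 6 higher with DESeq2 (275 and 448 of 14593). When 1 library was left out, log2 fold changes ran from 1.13 to 1.62 for summed Cyp1a and 1.16 to 2.47 for summed Cyp2b. They ran from 2.19 to 2.99 for summed Cyp2g and -3.25 to -0.404 for summed Cyp1b. By the titles, 1 called gene became 0 with library size alone (all genes: 5 higher and 31 lower of 14310). The count became 0 with a mean of at least 1 CPM (4 and 21 of 13445) and 8 higher with no filter (58 and 189 of 22449). With DESeq2 it became 16 higher (186 and 443 of 14310), and at an adjusted p under 0.1 it became 4 higher (36 and 145 of 14310). When 1 library was left out it was 0 to 4. It was 0 without flox 2 (0 of all 14689 genes), flox 3 (7 higher and 22 lower of 14785) or LKO 2 (2 and 2 of 14658). Without LKO 1 it was 4 higher (Cyp2c37, Cyp2c40, Cyp2c69 and Cyp3a44), where all genes gave 41 higher and 197 lower of 14787. Without LKO 3 the single call was Cyp2a22, lower, and it was the only call among all 14765 genes. The 0 sums by the titles became 3 higher with no filter (all rows: 56 higher and 194 lower of 22412). They became 5 higher with DESeq2 (174 and 436 of 14279). The cause of these differences was not tested. The call of Cyp2c50 was lost with library size alone (adjusted p = 0.0515), and that of Cyp3a44 by the titles with library size alone (0.0531) or a mean of at least 1 CPM (0.0597).

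Signs turned for results that passed in no grouping. When 1 library was left out, the log2 fold change by the genotype field ran from -0.17 to 0.63 for summed Cyp2a, -0.37 to 0.48 for Cyp2a4, -0.12 to 1.06 for Cyp2a5, -0.0378 to 0.398 for Cyp2u1, -0.037 to 0.398 for summed Cyp2u, -0.49 to 0.13 for summed Cyp3a and -0.704 to 0.0869 for Cyp3a11. With agreeing labels it ran from -0.27 to 0.99 for Cyp2a4, -0.90 to 0.40 for summed Cyp3a and -1.44 to 0.31 for Cyp3a11. By the titles it ran from -0.30 to 0.28 for summed Cyp3a and -0.57 to 0.18 for Cyp3a11. Summed Cyp3a by the titles was 0.0092 when copies outside the rule were added. Library size alone moved the median log2 fold change of all genes tested to -0.13 with agreeing labels, with 38 of 46 P450 genes above 0 and a P450 median of 0.53. The cause of these changes was not tested.

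No paired analysis was possible because the sample numbers in the labels are not shared between the groups. Fits that leave 1 library in a group assume that it varies like the others. The 7 untested genes had at most 10 counts in any library, and whether greater depth would detect them was not tested.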
